A study of Mus musculus with 11 samples.

Results

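The 11 back skin samples of this study, all from mice treated with MC903, were grouped by how much Cyp24a1 RNA each one held. The measured Cyp24a1 level, in expected counts for every 1000000 of the summed expected count of the sample (CPM), chose the members. The 5 samples above 100 CPM are called strong here, and the 6 samples below are called weak, so the classes were defined by that value alone. Both classes together make up all 11 samples. Every host carried the Tg(act-EGFP)Y01Osb transgene. After 10 Gy of radiation it was given femoral marrow sorted from Pdgfra-Cre;tdTomato mice, either tdTomato-negative (7 samples) or tdTomato-positive (4 samples). Pdgfra-Cre switches on tdTomato in cells whose lineage has expressed Pdgfra, and the rest of the skin is the host's own. MC903 was applied 6 times after 6 weeks of recovery, the skin was taken on day 14, and the labels give the age of all groups as 16 to 18 without a unit. The strong class holds negative replicates 2, 6 and 7 and positive replicates 1 and 3, and the weak class holds negative replicates 1, 3, 4 and 5 and positive replicates 2 and 4.

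No sample of skin without MC903 is among the 11, so the values are levels after treatment and not a response. The classes were read from the measurement and are not treatments, and each difference between them is an association across samples. The labels number the samples without saying that each is a separate mouse, so p-values measure only the spread between these samples. The libraries hold RNA of whole skin, in which fewer cells of a type and less RNA per cell cannot be told apart. Krt5, a keratin of basal keratinocytes, lay between 3056 and 4428 CPM in the 11 samples, as a check of the tissue. For Krt5 and all genes other than Cyp24a1, CPM refer to totals scaled with TMM factors. Summed expected counts ran from 7190752 to 9749842, with 8214860 ± 985389 (SD, n = 5) in the strong and 7737840 ± 507872 (SD, n = 6) in the weak class (two-sided exact permutation p = 0.344).

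Calcitriol and its analogs, among them MC903 (calcipotriol), bind the vitamin D receptor Vdr, which pairs with a retinoid X receptor such as Rxra on response elements in DNA. Cyp24a1 encodes the mitochondrial 24-hydroxylase that starts the breakdown of the hormone, and its transcription is among the most strongly induced by the liganded receptor, which makes the pathway limit itself. In mouse skin MC903 also induces the epithelial cytokine Tslp and a dermatitis used as a model of atopic dermatitis.

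Cyp24a1 differed 12.1-fold between the highest and the lowest sample. In rising order it stood at 23.3 CPM in negative replicate 1, 27.6 in positive replicate 2, 51.0 in negative replicate 5, 54.3 in negative replicate 4, 66.4 in negative replicate 3 and 67.1 in positive replicate 4, which are the weak samples. The strong samples followed with 105 in negative replicate 2, 119 in negative replicate 7, 154 in positive replicate 3, 165 in negative replicate 6 and 282 in positive replicate 1. The levels rise in steps, and positive replicate 1 stands above the rest. The exact (Clopper-Pearson) 95% intervals ran from 20.03 to 26.96 for the lowest sample, with 181 counts, and from 270 to 294 for the highest, with 2257 counts, and they cover counting error only. Intervals of neighbours in this order overlapped between negative replicate 1 and positive replicate 2, negative replicates 5 and 4, negative replicate 3 and positive replicate 4, negative replicates 2 and 7, and positive replicate 3 and negative replicate 6. The other neighbours differed beyond counting error. In TPM, which scale by gene length, the gene ranged from 12.3 to 138.

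The class means of 165 ± 69.9 (SD, n = 5) and 48.3 ± 18.8 (SD, n = 6) CPM follow from the threshold and were not tested. The samples on either side of the threshold had 67.1 and 105 CPM, and the interval of the latter, 97.5 to 113, reached below 100. The gene lies on chromosome 2 from 170482957 to 170497145 in GRCm38.p6.

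**Figure D1:**
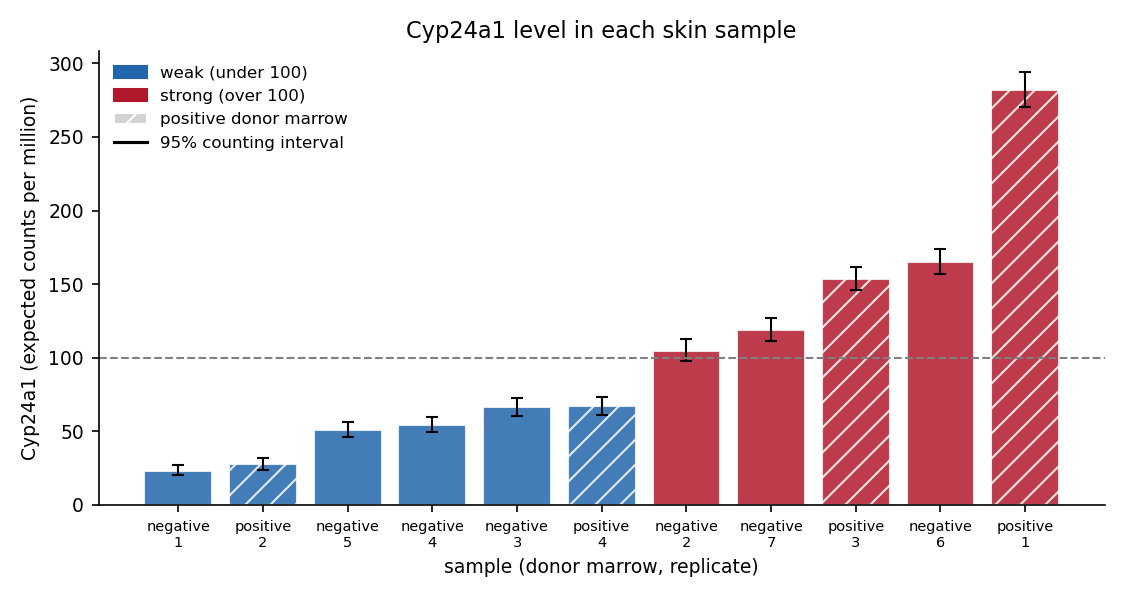
Cyp24a1 CPM of each sample, relative to its summed expected count, in rising order, with 95% exact intervals as bars, colored by class and marked by donor marrow; the dashed line is the threshold of 100. Both donor groups occur along the whole order, and positive replicate 1 is highest at 282.

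Both donor groups spanned most of this range. Skin with tdTomato-positive marrow had 133 ± 113 CPM (SD, n = 4) and skin with tdTomato-negative marrow 83.4 ± 48.7 (SD, n = 7). The positive samples lay between 27.6 and 282 and the negative samples between 23.3 and 165. The mean log2 level was 0.42 higher in the positive group, which did not differ beyond the spread between samples (two-sided exact permutation p = 0.552, over 330 splits, the smallest possible being 0.00303). Without positive replicate 1 the difference was -0.10.

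The comparison over all other genes asked which transcripts were higher or lower where Cyp24a1 was high. None passed. With donor marrow as a term, the quasi-likelihood test of edgeR covered 14431 genes. A Benjamini-Hochberg adjusted p under 0.05 was reached by 0 of them (0% called), and the smallest adjusted p was 0.99998. Unadjusted p was under 0.05 in 201 genes (1.39%), 119 higher (0.825%) and 82 lower (0.568%) in the strong class. The total was below the share of 0.05 of genes that chance alone gives at this threshold. With log2 Cyp24a1 itself in place of the classes, 0 genes passed in edgeR (0%), and at an unadjusted p under 0.05 there were 319 (2.21%). The median standard error of a log2 fold change was 0.14. DESeq2 called 1 of 14426 genes (0.00693%), Serpina9. A test of whether the class difference depended on donor marrow gave 0 genes (0%) in edgeR and 262 (1.82%) before adjustment at the same threshold. The slope and interaction counts before adjustment were also below the share that chance gives.

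No receptor or cofactor of the vitamin D pathway passed, and their fold changes between the classes were small. Vdr, the receptor itself, had 285, 195, 180, 329 and 149 CPM in the strong samples, in rising order of Cyp24a1, which is the order used for all strong samples from here on. In the weak samples it ran from 194 through a median of 263 to 360 CPM. The classes overlapped, and the sample with the most Cyp24a1 had the least Vdr, with a log2 fold change (strong minus weak) of -0.22 ± 0.19 (SE). Rxra, the dimer partner, had 225, 302, 320, 215 and 221 CPM in the strong samples against 224 to 295 CPM, with a median of 237, in the weak samples. Its log2 fold change was 0.04 ± 0.13 (SE), which lay below 0 in 6 alternative fits. Ncoa2, a coactivator of nuclear receptors, had the smallest p of the signalling list, at 122 ± 8.72 CPM (SD, n = 5) against 131 ± 9.66 (SD, n = 6) and a log2 fold change of -0.09 ± 0.07 (SE).

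Of the 16 tested members of the signalling list, 7 had a log2 fold change above 0, 9 lay below, and 0 passed in either direction. The log2 fold changes ran from -0.22 to 0.09 with a median of 0.00, where 48.3% of all tested genes lay above 0. The list holds the receptors, their coactivators and corepressors, and enzymes and carriers of vitamin D. The activating 1-alpha-hydroxylase Cyp27b1 did not pass the filter on low counts.

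No gene known elsewhere as a vitamin D target passed either. Of 24 listed, 15 passed the filter on low counts, 11 of these lay above 0 with a median log2 fold change of 0.13, and 0 passed in either direction. Leaving out positive replicate 1 gave a median of 0.03, and the negative samples alone gave -0.02. Trpv6, the epithelial calcium channel, had 19.5, 7.05, 8.74, 20.6 and 5.74 CPM in the strong samples. It ran from 6.65 through a median of 12.2 to 35.0 CPM in the weak samples, and the 3 strong samples with little hair keratin RNA (negative replicate 7 and positive replicates 1 and 3) had the lowest strong values. Its log2 fold change was -0.24 ± 0.38 (SE).

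Tslp, the cytokine through which MC903 is best known, had the smallest p of both vitamin D lists. It stood at 1.25, 1.86, 2.26, 5.13 and 2.99 CPM in the strong samples and from 0.67 through 1.41 to 2.701 CPM in the weak samples. The classes overlapped at these low counts, with a log2 fold change of 0.93 ± 0.41 (SE), and 4 of 5 strong samples lay above the weak median. Its Pearson r with log2 Cyp24a1 was 0.62 (permutation p = 0.0434) and its Spearman rho 0.75 (permutation p = 0.011), with adjusted p of 0.99995 and 1 over the 14431 genes. Without the 2 samples farthest from the median of Cyp24a1, negative replicate 1 and positive replicate 1, r was 0.59.

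Thbd, the thrombomodulin gene, had 53.8, 90.3, 62.9, 55.2 and 75.0 CPM in the strong samples against 40.9 to 63.3 CPM, with a median of 55.4, in the weak samples. Its log2 fold change was 0.30 ± 0.15 (SE), and the classes overlapped. Cd14, the coreceptor for lipopolysaccharide on myeloid cells, had 55.9, 14.5, 8.63, 19.0 and 133 CPM against 10.8 to 37.8 CPM. Only negative replicate 2 and positive replicate 1 stood above the weak samples. Spp1 (osteopontin) had 29.1, 18.2, 6.89, 20.5 and 111 CPM against 5.12 to 36.8 CPM. Its log2 fold change of 0.76 ± 0.57 (SE) became -0.0081 without positive replicate 1. Cyp3a13, a cytochrome P450 gene, had a log2 fold change of 0.47 ± 0.33 (SE). Fbp1 (fructose-1,6-bisphosphatase), the lowest of the list and named with its values known, had a log2 fold change of -0.95 ± 0.96 (SE), with 0.40 to 58.2 CPM in the strong samples.

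**Figure D2:**
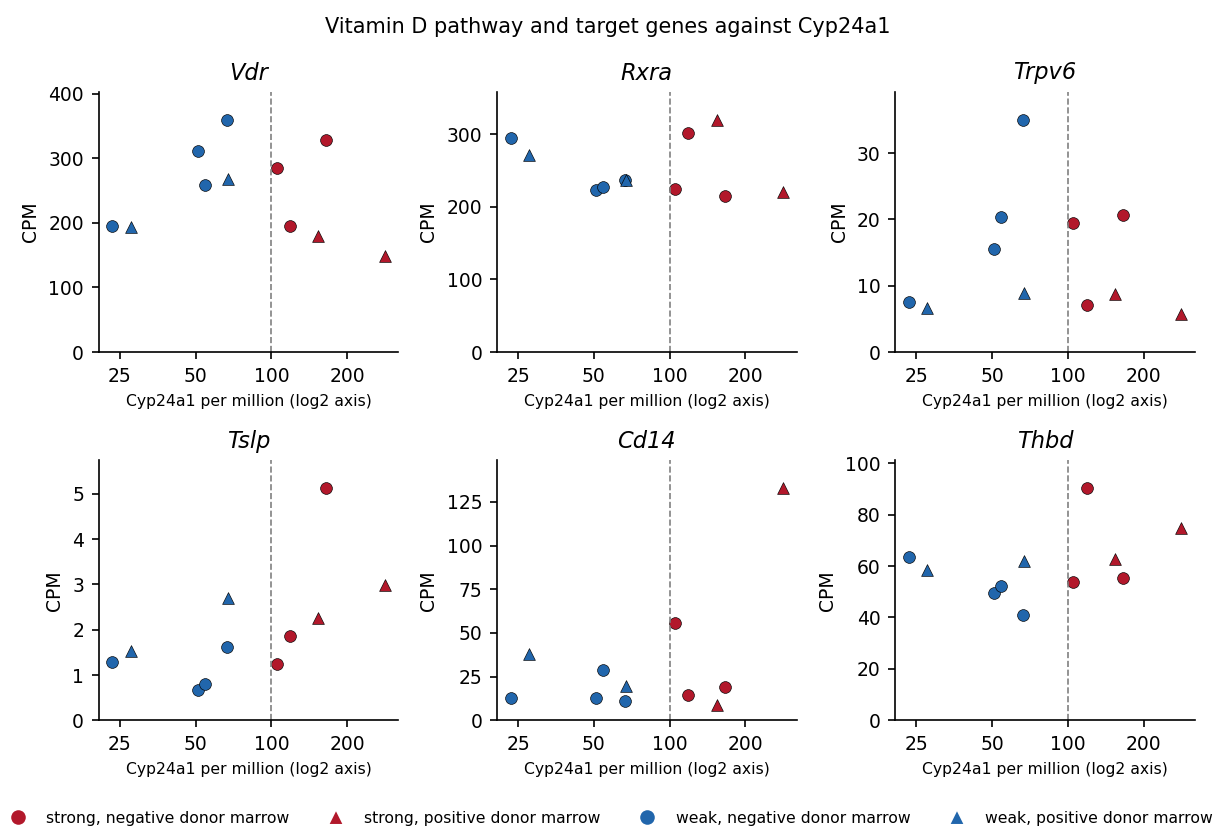
CPM of 6 vitamin D pathway and target genes in each of the 11 samples against Cyp24a1 CPM (log2 axis), colored by class and marked by donor marrow. Vdr, Rxra and Trpv6 show overlapping classes, Tslp is highest in negative replicate 6 (5.13 CPM), and Cd14 in positive replicate 1 (133 CPM).

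The gene with the smallest p of all was Serpina9, which encodes a serine protease inhibitor of the serpin family. It had 39.9, 34.7, 45.4, 42.2 and 47.9 CPM in the strong samples, and ran from 16.8 through a median of 23.4 to 33.8 CPM in the weak samples. Each strong sample lay above each weak sample, with negative replicate 5 of the weak class closest to them. Between the classes it differed by 0.81 ± 0.16 (SE) on the log2 scale. The adjusted p was 0.99998 in edgeR and 0.0176 in DESeq2. The log2 fold change was 0.66 in the negative and 1.06 in the positive samples alone. Its r with log2 Cyp24a1 was 0.78 (permutation p = 0.00586, adjusted p = 0.99995) and 0.74 without the 2 samples farthest from the median. Serpina9 lies on chromosome 12 from 103996615 to 104013652.

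The classes did not overlap in 9 of 14431 genes (0.0624%), 6 with the strong class above (0.0416%) and 3 below (0.0208%). Since 5 and 6 samples can be divided in 462 ways, chance alone would separate a larger share of genes than the 0.0624% found. The 9 genes are thus no excess over chance, and their separation was not tested. Beside Serpina9 the strong class lay above in Ltb4r1, Kctd11, Ptger2, Tor1a and Diap1, and it lay below in Brd3, Tmem242 and 1700029J07Rik. Tor1a, Diap1, Tmem242 and 1700029J07Rik are named only because they are among the 9, after their values were seen. Ltb4r1, the leukotriene B4 receptor of leukocytes, had 10.0, 9.44, 8.84, 9.42 and 11.7 CPM against 5.12 to 8.22 CPM in the weak samples. The log2 fold change was 0.51 ± 0.14 (SE), and no strong value was below 8.84 CPM. Kctd11, an adaptor for ubiquitin ligation that restrains Hedgehog signalling, had 86.4, 125, 85.3, 85.1 and 98.4 CPM against 65.1 to 81.7 CPM. Ptger2, a receptor for prostaglandin E2, had 1.54 to 2.13 CPM against 0.40 to 1.53 CPM, so few counts separated the classes. Brd3, a bromodomain protein that reads acetylated histones, had 63.8, 62.4, 59.7, 58.5 and 54.1 CPM against 63.9 to 70.8 CPM. Its classes almost touched, and its log2 fold change was small, at -0.19 ± 0.06 (SE).

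The other genes with the smallest p in the higher direction overlapped between the classes, and none passed. Esm1, the endothelial proteoglycan endocan, had 2.09, 5.19, 3.49, 4.77 and 6.11 CPM in the strong samples and 0.77 to 2.56 CPM, with a median of 2.16, in the weak samples. Only negative replicate 2 of the strong class fell within the weak values, and the log2 fold change was 1.14 ± 0.31 (SE). Gsta4, a glutathione S-transferase that clears lipid peroxidation products, had 28.7, 46.6, 31.8, 35.2 and 94.5 CPM against 9.698 to 38.9 CPM. As3mt (arsenite methyltransferase), Esd (esterase D) and Grid2ip, a binding partner of a glutamate receptor, had log2 fold changes of 0.54, 0.29 and 1.28. Eno1b and Csta1 had 0.61 and 0.57. Both have near-identical copies in the genome, an enolase and the stefin A cluster, so their counts are uncertain.

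In the lower direction Xlr3b, on chromosome X, had the smallest p. Its values were 0.42, 1.995, 0.41, 0.24 and 1.37 CPM in the strong and 1.80 to 6.75 CPM in the weak samples. The log2 fold change was -2.32 ± 0.52 (SE), and the counts are uncertain because the Xlr3 genes are near-identical copies. Kcnh1, a voltage-gated potassium channel, had 33.0, 27.9, 25.1, 39.7 and 27.8 CPM against 33.2 to 47.6 CPM. On the log2 scale the difference was -0.36 ± 0.09 (SE), and negative replicate 6 of the strong class lay within the weak values. Tdg, a DNA glycosylase that acts in DNA demethylation, and Alkbh2, a DNA repair dioxygenase, had log2 fold changes of -0.45 and -0.60. Orm1, the acute phase protein orosomucoid, had 6.13 to 12.2 CPM against 11.05 to 16.5 CPM. Adhfe1, Zfp108, Dnal1 and BC028528 completed the 10, with log2 fold changes of -0.38, -0.74, -0.33 and -0.72.

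Ranked by Pearson r with log2 Cyp24a1 over the 11 samples, the genes ran from -0.94 to 0.84 around a median of -0.01. A permutation p of r was under 0.05 in 307 of 14431 genes, that of Spearman's rho in 243, and the smallest adjusted p was 0.99995 for r and 1 for rho. Both counts were below the share of 0.05 of genes that chance alone gives. The highest r belonged to Mapkapk2, a kinase downstream of p38, at 0.84, with 115, 124, 116, 116 and 125 CPM in the strong and 99.0 to 117 CPM in the weak samples. The span was narrow, with a log2 change of 0.08 ± 0.03 (SE) for each doubling of Cyp24a1. Esm1 and Zdhhc16, a palmitoyltransferase, both had r = 0.83. Lias, which makes lipoic acid in mitochondria, had r = 0.82, and Fam175b, a scaffold of a deubiquitinating complex, had r = 0.81.

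Of the 5 named genes at the other end of this ranking, 3 carry zinc finger symbols, Zfp874b, Zfp579 and Zfp11. Zfp874b had r = -0.86 with rho = -0.89 (permutation p = 0.00068 and 0.00054), and Zfp579 had r = -0.86 with rho = -0.89 (permutation p = 0.00043 and 0.00052). Without negative replicate 1 and positive replicate 1 their r was -0.84 and -0.71. Zfp579 had 5.16, 5.99, 5.04, 4.89 and 3.12 CPM in the strong and 5.66 to 8.37 CPM in the weak samples. Jrk, a DNA-binding protein, had r = -0.85, Zfp11 -0.82, and Kcns1, a modulatory potassium channel subunit, -0.81. The transcript with the lowest r of all was 4930525G20Rik, at -0.94 (permutation p = 8.0e-05, adjusted p = 0.99995) and -0.87 without the same 2 samples. It falls outside the naming rule and was singled out after its values were seen, at 0.75 to 1.13 CPM in the strong and 1.08 to 2.45 CPM in the weak samples.

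**Figure D3:**
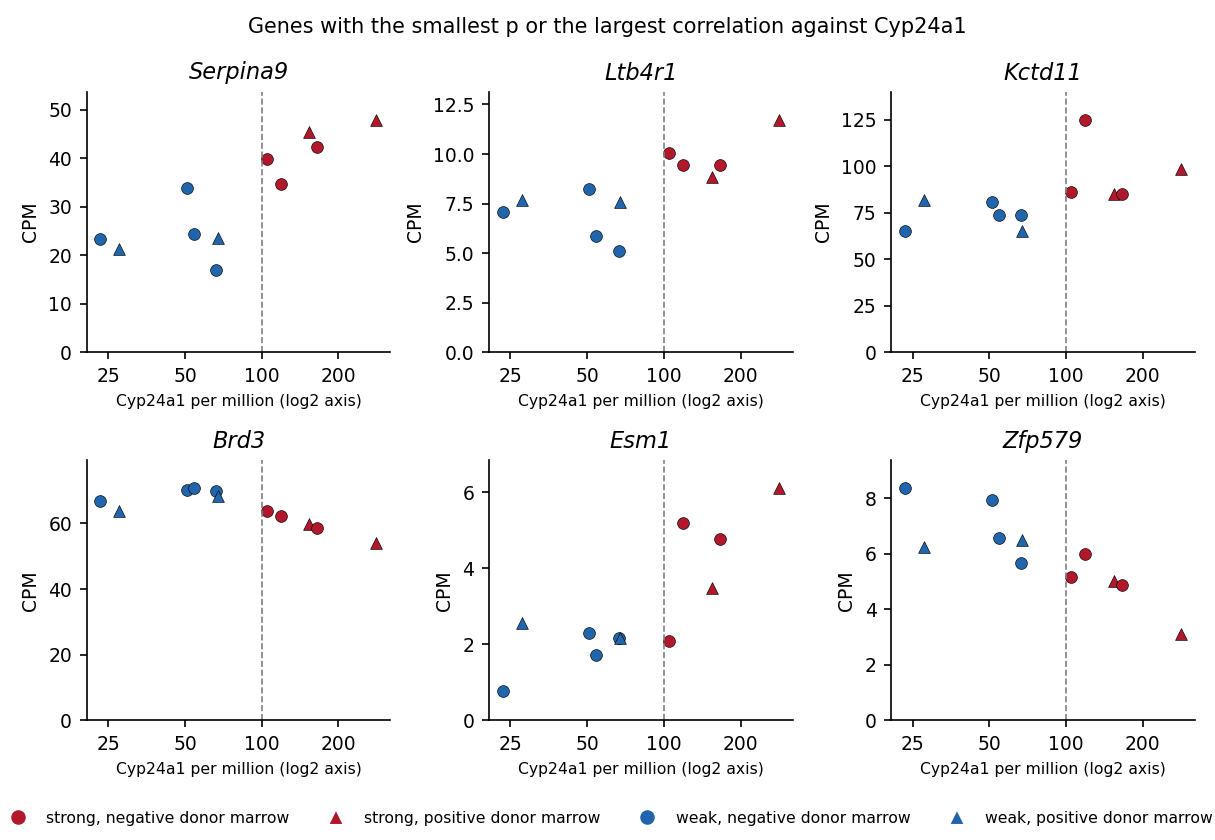
CPM of 6 genes with the smallest p or the most extreme r in each of the 11 samples against Cyp24a1 CPM (log2 axis), colored by class and marked by donor marrow. Serpina9, Ltb4r1 and Kctd11 lie higher and Brd3 lower in the strong class without overlap, while Esm1 and Zfp579 overlap.

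Immediate early genes, which stimulated cells switch on within minutes, were the list with the most slopes on Cyp24a1. Of 20 tested members of the immediate early and heat shock list, 8 had a slope with an unadjusted p under 0.05, all above 0, where 2.21% of all genes did in either direction. They were Fos, Fosb, Junb, Atf3, Ier3, Dusp1, Nr4a1 and Zfp36, named with their values known. None of the 20 passed in edgeR with the adjusted p, for the slope or between the classes. Over the whole list 14 of 20 members lay above 0 between the classes, with a median log2 fold change of 0.04.

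Nr4a1, a nuclear receptor of the NUR77 type, had 22.3, 18.2, 21.0, 28.5 and 44.2 CPM in the strong samples. The weak samples ran from 10.8 through 15.04 to 23.2 CPM, and only negative replicate 4 among them reached the strong values. The slope, with an edgeR adjusted p of 0.99994, was 0.42 ± 0.10 (SE) in log2 for each doubling of Cyp24a1, and r was 0.79 (permutation p = 0.00387, adjusted p = 0.99995). Without the 2 samples farthest from the median r was 0.73. Fosb, a subunit of the AP-1 transcription factor, had 14.6, 5.05, 7.502, 57.7 and 16.96 CPM against 2.56 to 24.9 CPM. Fos, a gene of the same family, had 72.6, 26.2, 20.6, 191 and 73.8 CPM against 17.1 to 99.2 CPM. Both were highest in negative replicate 6 of the strong and negative replicate 4 of the weak class. Without the same 2 samples r was 0.53 for Fosb and 0.27 for Fos.

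Dusp1, a phosphatase that ends MAP kinase signals, had 69.8, 50.3, 56.4, 99.2 and 124 CPM against 42.8 to 75.8 CPM. Atf3, a stress-induced repressor, had 12.0, 8.65, 6.78, 13.7 and 20.5 CPM against 3.45 to 14.7 CPM. In both the upper strong samples were negative replicate 6 and positive replicate 1, which also hold the most Cyp24a1. Junb, Ier3 and Zfp36 had slopes of 0.21, 0.22 and 0.20 in log2 for each doubling. Leaving out negative replicate 1 and positive replicate 1 changed r from 0.54 to -0.018 for Ier3, from 0.49 to 0.23 for Junb, from 0.62 to 0.30 for Dusp1, from 0.60 to 0.38 for Zfp36 and from 0.68 to 0.59 for Atf3. For Ier3 the relation rested on these samples. Heat shock genes did not share these values, since no slope of the 7 on the list had an unadjusted p under 0.05.

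**Figure D4:**
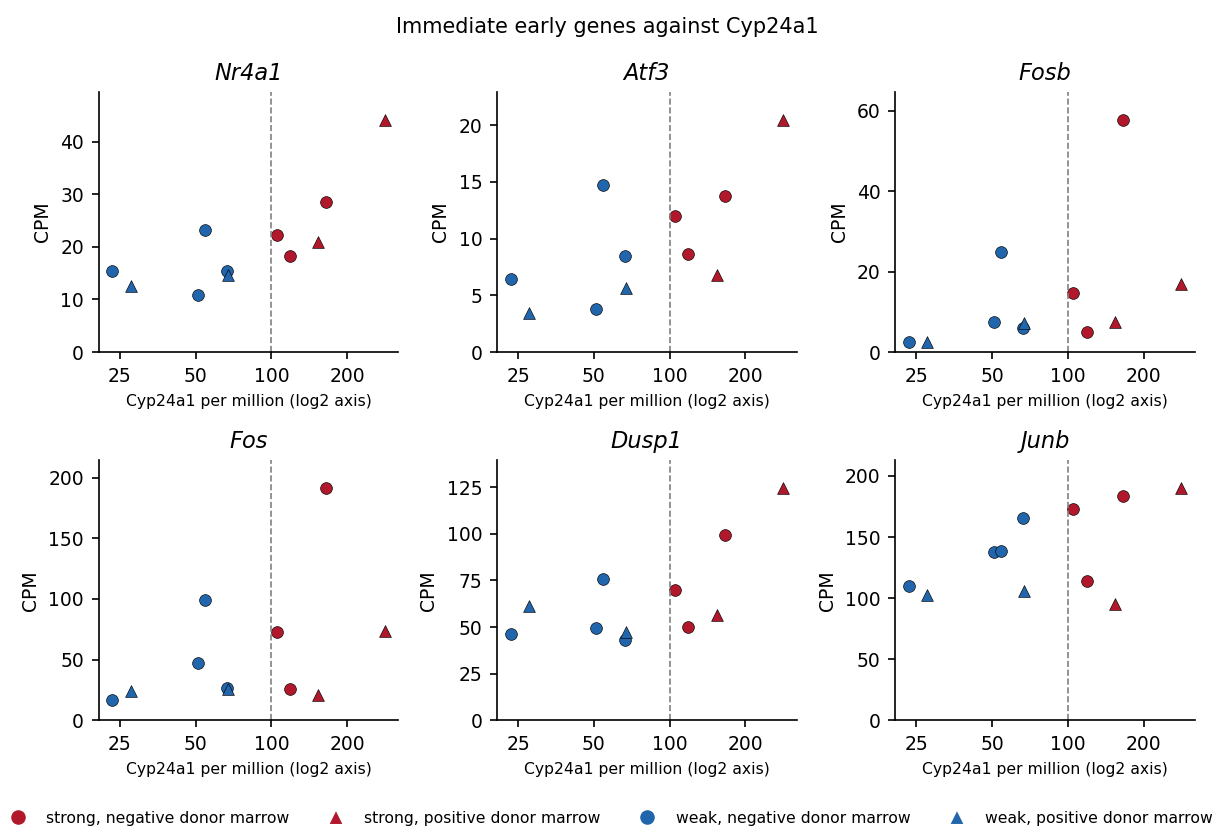
CPM of 6 immediate early genes in each of the 11 samples against Cyp24a1 CPM (log2 axis), colored by class and marked by donor marrow. Negative replicate 4 of the weak class is at the level of strong samples in Nr4a1, Atf3 and Fosb, and negative replicate 6 is highest for Fos (191 CPM).

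Most cytokine genes lay above 0 between the classes, with smaller medians when positive replicate 1 was left out, and 0 of them passed. Of 11 tested alarmins and epithelial cytokines 10 lay above 0, with a median log2 fold change of 0.36, and 0.20 without positive replicate 1. Their summed level was 762 CPM in that sample, 280 to 468 CPM in the other strong samples and 287 to 377 CPM in the weak samples. Il1b, a cytokine of inflamed skin named with its values known, had 93.0, 13.2, 2.57, 23.3 and 266 CPM against 7.41 to 54.4 CPM. Positive replicate 3, strong in Cyp24a1, had the lowest Il1b of all 11 samples. Il6 had 8.50, 1.06, 0.62, 5.01 and 10.1 CPM against 0.67 to 3.09 CPM, with negative replicates 2 and 6 and positive replicate 1 above every weak sample. Of the 11 alarmins and epithelial cytokines, 9 had a slope on log2 Cyp24a1 above 0, against 50.5% of all genes. Leaving out negative replicate 1 and positive replicate 1 changed r from 0.23 to -0.34 for Il1b, from 0.28 to 0.09 for Il6 and from 0.62 to 0.59 for Tslp.

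Of 21 tested type 2 inflammation genes 18 lay above 0, with a median of 0.18. Il4, the cytokine that defines this response, had 5.86, 2.13, 1.54, 2.15 and 6.36 CPM against 0.27 to 2.04 CPM. Of the strong samples only positive replicate 3 lay within the weak values, and the log2 fold change was 1.45 ± 0.49 (SE). Arg1, an arginase of macrophages and keratinocytes, had 102 to 343 CPM against 93.5 to 242 CPM. In the list of type 17 cytokines and neutrophil attractants 11 of 11 lay above 0 with a median of 0.67, and of 0.16 without positive replicate 1. Its members with the smallest p, the defensin gene Defb14 and the nitric oxide synthase gene Nos2, had log2 fold changes of 0.84 ± 0.29 and 0.67 ± 0.41 (SE). All 22 type I interferon response genes lay above 0, with a median of 0.37, and of 0.09 without positive replicate 1. Ifit1, an interferon-induced gene, had 58.9 CPM in that sample, 14.9 to 25.4 CPM in the other strong samples and 6.87 to 28.6 CPM in the weak ones. Slopes on log2 Cyp24a1 lay above 0 in 11 of 21 type 2, 9 of 11 type 17 and 22 of 22 interferon genes, against 50.5% of all genes. The type 2 count was thus near the share of all genes. Members of a list share the same samples and are not independent, and 0 of the 22 interferon slopes had an unadjusted p under 0.05. Leaving out negative replicate 1 and positive replicate 1 changed r from 0.45 to -0.13 for Ifit1 and from 0.47 to -0.15 for Bst2, another interferon-induced gene.

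Leukocyte lists differed in which samples were highest, and 0 of their members passed. All 11 tested neutrophil genes lay above 0, with a median of 0.54, and of 0.14 without positive replicate 1. Their summed level was 748 CPM in positive replicate 1 and 492 CPM in negative replicate 2, but 73.3 CPM in positive replicate 3, the lowest of all, and 94.8 to 388 CPM in the weak samples. Of 23 macrophage and monocyte genes 21 lay above 0, with a median of 0.22, and of -0.0082 without positive replicate 1. Clec4d, a lectin of myeloid cells, and Fpr2, a formyl peptide receptor, belong to the neutrophil list, which shares members with the type 17 list. These 2 genes had 65.6 and 9.98 CPM in positive replicate 1 against at most 16.2 and 2.23 CPM in the other strong samples. Mast cell and basophil genes lay above 0 in 5 of 13, with a median of -0.09. Their summed level was highest in negative replicate 1 of the weak class, at 614 CPM, against 416 CPM in positive replicate 1. Their members with the smallest p were Hdc, the enzyme that makes histamine, with 13.6 to 114 CPM against 6.87 to 28.6 CPM, and the basophil protease gene Mcpt8. T cell and cytotoxic lymphocyte genes lay above 0 in 12 of 18, with a median of 0.09, and their summed level was highest in positive replicate 2 of the weak class, at 113 CPM. Their members with the smallest p were Gzmb (granzyme B), at a log2 fold change of 0.75 ± 0.34 (SE), and Cd3d, at -0.79 ± 0.44 (SE). Among 13 itch and nociception mediators 7 lay above 0, with a median of 0.03. By slope on log2 Cyp24a1, 10 of 11 neutrophil, 18 of 23 macrophage, 3 of 13 mast cell and 6 of 18 T cell genes lay above 0. Over all genes 50.5% did by slope and 48.3% between the classes. Leaving out negative replicate 1 and positive replicate 1 changed r from 0.31 to -0.34 for Clec4d and from 0.65 to 0.08 for Fpr2. In the macrophage list it changed from 0.33 to -0.33 for Cd14 and from 0.43 to -0.20 for Itgam.

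In the epidermis, the keratin genes Krt6a and Krt6b had higher means in the strong samples, Krt17 did not, and none passed. Of 20 tested genes of the activated epidermis list 17 lay above 0, with a median of 0.39, from 0.24 to 0.66 over the fits that leave out 1 sample. For the slope on log2 Cyp24a1 it was 14 of 20. Over all genes 48.3% lay above 0 between the classes and 50.5% by slope. Krt6a had 3781, 6020, 3949, 3445 and 7324 CPM in the strong samples and ran from 1486 through 3017 to 4277 CPM in the weak samples. Krt6b had 3523, 6394, 5687, 3411 and 8143 CPM against 786 to 4547 CPM. Both keratins, which come up in thickened or wounded epidermis, were highest in negative replicate 7 and positive replicate 1, lowest in negative replicate 3, and overlapped between the classes. Their log2 fold changes were 0.67 ± 0.25 and 0.82 ± 0.35 (SE), and they share sequence, so their reads can be divided wrongly. Krt17, a keratin of stressed epidermis and hair follicles named with its values known, had 1957, 1381, 1516, 2045 and 1311 CPM in the strong samples. It ran from 1224 through 1645 to 2070 CPM in the weak samples, with a log2 fold change of 0.012 ± 0.13 (SE) whose sign differed between alternative fits.

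The basal keratin Krt14 had 6955, 10835, 9316, 6492 and 11703 CPM against 3156 to 8890 CPM. For the basal epidermis 10 of 13 genes lay above 0 with a median of 0.12, which was -0.05 without negative replicate 7. For differentiation and barrier 28 of 36 lay above 0 with a median of 0.14, which was -0.04 without negative replicate 7. The slope on log2 Cyp24a1 lay above 0 in 8 of the 13 basal and 14 of the 36 differentiation genes. Dsc1, a desmosomal cadherin of upper layers, had 980 to 1362 CPM against 747 to 1123 CPM. The keratin Krt77 of sweat ducts and suprabasal cells had 10.6 to 48.3 CPM against 15.5 to 285 CPM. Cell cycle genes had a median of 0.04 between the classes, with 18 of 28 above 0. Their slopes on Cyp24a1 lay above 0 in 28 of 28, against 50.5% of all genes, and 0 of these had an unadjusted p under 0.05. Negative replicate 1, with the least Cyp24a1, had the lowest summed cell cycle level, 697 CPM, against 1122 to 1904 CPM in the other samples. The 28 genes share the same samples and are not independent. Leaving out negative replicate 1 and positive replicate 1 changed r from 0.51 to 0.03 for Rrm2 and from 0.54 to -0.05 for Cdk1. The list median between the classes was -0.095 without negative replicate 1, 0.17 in the negative and -0.19 in the positive samples alone.

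Hair follicle RNA differed more between samples than any of these lists, without following Cyp24a1. The 31 hair shaft and follicle genes took 2.95%, 0.0496%, 0.112%, 4.08% and 0.357% of counts in the strong samples. In the weak samples, from the lowest to the highest Cyp24a1, they took 0.315%, 0.0683%, 3.59%, 3.0001%, 5.42% and 1.70%. High and low hair samples occurred in both classes. All 31 lay below 0 between the classes, as did 51.7% of all genes, with a median of -1.04, and 0 passed. Leaving out positive replicate 4 brought that median to -0.07, leaving out negative replicate 6 to -1.58, and 18 of 31 slopes on log2 Cyp24a1 lay above 0. The hair keratin gene Krt85, named with its values known, had 179, 1.73, 4.83, 245 and 18.8 CPM in the strong samples and 2.04 to 419 CPM in the weak samples.

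Vdr was lower in the samples with little hair RNA. It lay between 149 and 195 CPM in the 5 samples with under 1% hair counts, and between 259 and 360 CPM in the other 6. The 1% line was drawn with these values known. The separation of Vdr along it was not tested, and its frequency among all genes was not counted. With a hair score as a covariate its log2 fold change was -0.06. Serpina9 and Tslp kept log2 fold changes of 0.84 and 1.07 in that fit. Skeletal muscle genes lay above 0 in 22 of 22, with a median of 0.29 that became -0.05 without negative replicate 7. The part of hair and muscle in the difference of Vdr and in the others was not tested beyond the fits with their scores as covariates.

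**Figure D5:**
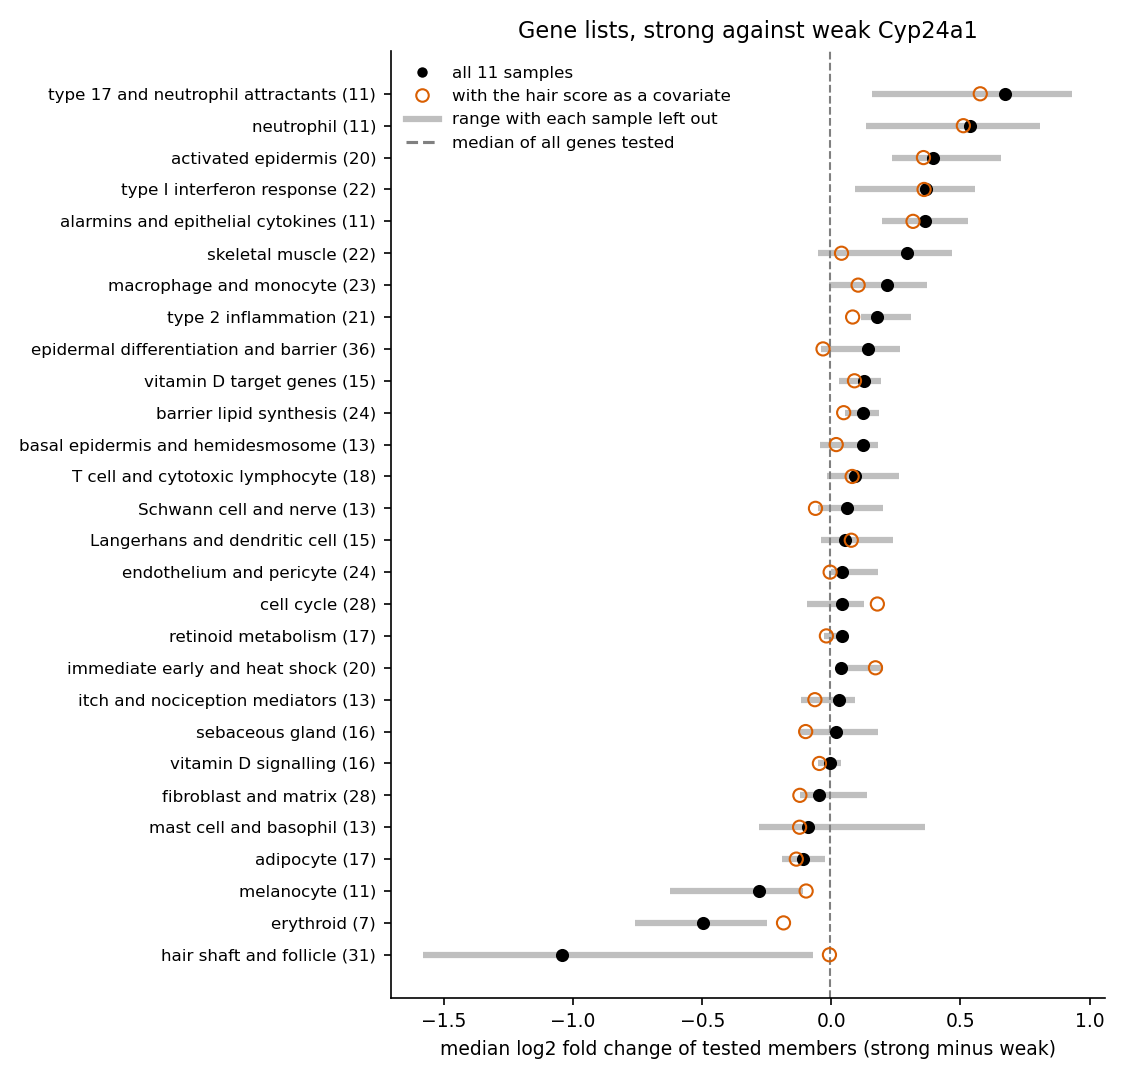
Median log2 fold change (strong minus weak) of each gene list with at least 5 tested members, as filled points. Open circles are the medians with the hair score as a covariate. Grey bars span the medians of the fits that leave out 1 sample, and the dashed line is the median of all tested genes. Hair genes lie lowest (median -1.04), and type 17 and neutrophil lists, which share members, lie highest (0.67 and 0.54).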

How the data were processed

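Total RNA of back skin was sequenced in 11 samples on a NextSeq2000 after removal of ribosomal RNA with RNase H, per the labels' protocols. Tools named in the submitters' processing notes are RSEM, Trim Galore and bcl2fastq, with the build GRCm38. For their versions, the aligner and the strand, the entry is: not given in the sources used here. Expected counts were deposited by the authors as RSEM's estimated reads per gene, not normalized, and reads that map to several genes are divided between them. Deposited TPM, scaled by effective length, served for 1 alternative and for the Cyp24a1 level. The effective lengths, a measure of another kind in the deposited files, gave a length offset.

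Expected counts were rounded and tested with edgeR 4.0.16 (glmQLFit in legacy mode, glmQLFTest, TMM factors) in R 4.3.3 with donor marrow and class, or donor marrow and log2 Cyp24a1, as terms. Of 24411 genes, 14431 beside Cyp24a1 passed filterByExpr (minimum count 10, minimum total 15). The threshold was a Benjamini-Hochberg adjusted p of 0.05 over all genes tested. A standard error is the log2 fold change over the root of its F value. Pearson r and Spearman rho used log2 CPM (prior count 1) and 100000 permutations, two-sided. Tests of single values were exact permutations. Intervals hold 95% and cover counting error only, since the reads carry no molecular identifiers. The class fits of edgeR, DESeq2 and voom were checked on simulated counts, and the correlation test on simulated normal values.

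The classes and the 31 gene lists (594 symbols, 587 in the files) were chosen with earlier results of these data known. Named genes come from the 10 with the smallest p in each direction and the 5 largest and 5 smallest r. The 6 smallest p of both vitamin D lists and the 2 smallest of each other described list with at least 5 tested members joined them. Predicted genes and the 5 symbols of a sex-linked list were left out, and other X-linked genes such as Xlr3b were kept. Vdr, Rxra, Trpv6 and the genes marked as such were added with their values known. Alternatives were other normalizations and filters, DESeq2 1.42.0, limma 3.58.1 (voom with and without sample quality weights, and limma-trend on log2(TPM + 1)), length offsets, hair and muscle covariates, each donor group alone, omission of samples and a replicate block. RefSeq (GRCm38.p6) gave the coordinates.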

Additional observations from a re-analysis of the deposited data

Results flagged for a closer look

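Among 162 sets of samples, each a named gene or summed quantity in 1 class, 15 held a sample far from the nearest other. Far means that the gap was large for the range of its class, for which chance was set at about 1 in 20. The sets reuse the same samples and many of their genes were chosen by p, so the 15 cannot be compared with that rate. In the strong class positive replicate 1 stood above the others for Gsta4 (94.5 CPM, others 28.7 to 46.6), Spp1 (111 CPM, others 6.89 to 29.1), Ifit1 (58.9 CPM, others 14.9 to 25.4), Fpr2 (9.98 CPM, others 0.72 to 2.23) and Clec4d (65.6 CPM, others 1.54 to 16.2). In the same class negative replicate 6 stood apart for Fosb (57.7 CPM, others 5.05 to 16.96) and positive replicate 3 for Adhfe1 (6.58 CPM, others 5.44 to 5.74).

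In the weak class negative replicate 4 stood above the others for Fos (99.2 CPM, others 17.1 to 47.2), Fosb (24.9 CPM, others 2.56 to 7.54) and Nr4a1 (23.2 CPM, others 10.8 to 15.5). Negative replicate 1 was high for Kcns1 (4.12 CPM, others 0.81 to 1.61) and low for the proliferation genes Rrm2 (17.1 CPM, others 34.5 to 44.7) and Cdk1 (9.27 CPM, others 25.6 to 30.9). Positive replicate 2 was high for Arg1 (242 CPM, others 93.5 to 140.3) and negative replicate 3 for Krt77 (285 CPM, others 15.5 to 78.0).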

How the results depend on the processing

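The count of genes with an edgeR adjusted p under 0.05 between the classes stayed at 0 in each alternative except DESeq2, which called 1 (Serpina9, log2 fold change 0.81), and unadjusted calls ran from 148 to 610. The slope and interaction counts stayed at 0, with 230 to 700 and 262 to 281 unadjusted calls. Refits with edgeR's version 4 deviances, chosen after seeing the data, gave 207 and 332 unadjusted calls. Same-numbered samples were not the most alike in expression (correlations -0.04, -0.14, -0.06 and 0.35). Whether the replicate numbers mark a pairing cannot be read from these correlations. With a replicate block there were 0 calls (148 and 417 unadjusted), and the donor difference in log2 Cyp24a1 was 0.80, of the same sign. The block turned the sign of the hair list median (1.35) and of the log2 fold changes of Rxra (-0.12), Trpv6 (0.12), Fbp1 (0.55), Krt85 (1.53) and Msx2 (0.36). The donor difference ran from -0.10 to 1.01 when 1 sample was left out. Other reversals came from the hair score (Rxra -0.064, Trpv6 0.066), the muscle score (Rxra -0.016), quality-weighted voom (Rxra -0.051, Acta1 -0.066, Cacna1s -0.018) and the positive samples alone (Rrm2 -0.095, Cdk1 -0.047). Over the fits without 1 sample, Rxra ran from -0.043 to 0.11, Trpv6 from -0.40 (without negative replicate 1) to 0.042 (without negative replicate 3) and Spp1 from -0.0081 (without positive replicate 1) to 1.02. Krt17 was at -0.024 with class as the only term, -0.070 without the samples nearest the threshold and -0.041 in the negative samples alone, and ran from -0.039 to 0.117 without 1 sample. The cause was not tested. None of these genes passed in edgeR. Near the threshold the counting interval of 1 sample reached both classes. Tslp and Ptger2 rest on few counts, and what part of their spread is counting error was not tested.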

Other observations

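Of 10 further lists, for retinoid metabolism, barrier lipid synthesis, melanocytes, sebaceous glands, adipocytes, fibroblasts and matrix, endothelium, dendritic cells, nerve and erythroid cells, the medians between the classes ran from -0.50 to 0.12. Of their 172 tested members 0 had an unadjusted p under 0.05, and 0 passed in edgeR. Melanocyte genes, which share the follicle with hair genes, lay below 0 in 9 of 11, with a median log2 fold change of -0.28. Adipocyte genes lay below 0 in 14 of 17, with a median of -0.11. Dendritic cell genes had a median of -0.26 in the negative and 0.64 in the positive samples alone, and this difference was not tested for the list.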
